A study of Rattus norvegicus with 32 samples.

Results

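AMPA and kainate receptors are glutamate-gated ion channels, and AMPA receptors carry most fast excitatory transmission in the brain. AMPA receptors are tetramers of the subunits encoded by Gria1, Gria2, Gria3 and Gria4, and the Gria2 subunit, once its transcript has been edited by the RNA editing enzyme Adarb1, keeps the channel closed to calcium. Kainate receptors are built from the Grik1, Grik2 and Grik3 subunits, which form channels on their own, and from the high-affinity subunits of Grik4 and Grik5, which need a partner of the first kind. Kainate receptors are known for their role at the mossy fiber synapse, through which dentate granule cells excite CA3 pyramidal neurons, and Grik4 is a known enriched transcript of the CA3 field.

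The 9 genes were taken by symbol from the table that pairs the probes of the array with genes. It held 13 probes for 8 of them among 33849 probes in all, and Gria3, which has no probe under that symbol, was not analysed here. The RNA came from CA3 pyramidal neurons of adult male Sprague-Dawley rats, collected by laser capture microdissection (LCM) from tissue stained with Fluoro-Jade, a dye for degenerating neurons, and only neurons without the dye were taken. There were 8 groups: sham-operated rats without drug (SHAM), fluid percussion traumatic brain injury (TBI), TBI after subcutaneous metyrapone at 100 mg/kg (TBI+MT), which inhibits glucocorticoid synthesis, and TBI after subcutaneous carbenoxolone at 30 mg/kg (TBI+CB), which inhibits the enzyme 11βHSD, each at 4 h and at 24 h. The labels place both drugs 90 min before injury, describe each RNA sample as a pool of 3 to 6 rats, give saline to TBI rats and call the 4 h SHAM rats untreated, whereas the methods of the study describe saline for SHAM rats too and another interval before injury. Each group had 2 pooled samples, each of them hybridized to 2 arrays, and the 2 arrays were averaged to 1 value. A level is the intensity of a probe divided by the median intensity of its array. The pooled samples give the only replicate error, so p-values measure the spread between pools, and a pooled level cannot tell fewer cells with a transcript from less transcript in each cell.

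Probes above background made up between 26.1% and 65.9% of an array, and the 24 h samples TBI+MT replicate 1 (27.4%) and TBI+CB replicate 2 (30.1%) were dimmest. Duplicate arrays correlated with a median r of 0.975 and pooled samples of a group with a median r of 0.873. The slide numbers in the file headers fall into 3 series, called slide runs here. Run 1 held both 4 h SHAM samples and TBI 4 h replicate 1, run 2 held the other 4 h samples with SHAM and TBI at 24 h, and run 3 held both drug groups at 24 h. At 24 h, therefore, a difference between drug-treated and TBI rats and one between slide runs cannot be told apart. Among pyramidal neuron markers, Slc17a7 and Camk2a were above background on all 32 arrays and Neurod2 on 4. Of the CA3 markers on the array, Bok was above background on 30 arrays, whereas Iyd, Coch and Socs2 did not pass the filter, and the CA1 marker Wfs1 and the granule cell marker Prox1 were above background on all 32. All 5 astrocyte markers passed, as did 4 of 5 microglial, 3 of 6 oligodendrocyte, 5 of 7 interneuron and 4 of 5 endothelial markers.

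Which subunits could be measured in these neurons? A probe was kept when some group had it above background on each of its 4 arrays, and 6 probes of 4 genes met this: Gria2, Gria4 (2 probes), Grik4 (2 probes) and Grik5. The probes GE20455 for Gria2, GE1139682 for Grik4 and GE20456 for Grik5 were above background on all 32 arrays. The second Grik4 probe, GE21905, was above background on 31 arrays. Of the 4 Gria4 probes, GE1119908 was above background on all 31 arrays with a usable spot, GE21807 on 20, GE20457 on 6 and GE1211581 on 0. The table pairs both Gria4 probes that passed with expressed sequence tags, and pairs GE20457, which did not pass, with the RefSeq transcript of Gria4. GE1211581, above background on 0 arrays, is paired with an expressed sequence tag too. The Gria4 levels below are therefore those of probes whose signal GE20457 and GE1211581 largely did not share. Which of the 4 probes reports the transcript was not tested.

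**Figure D1:**
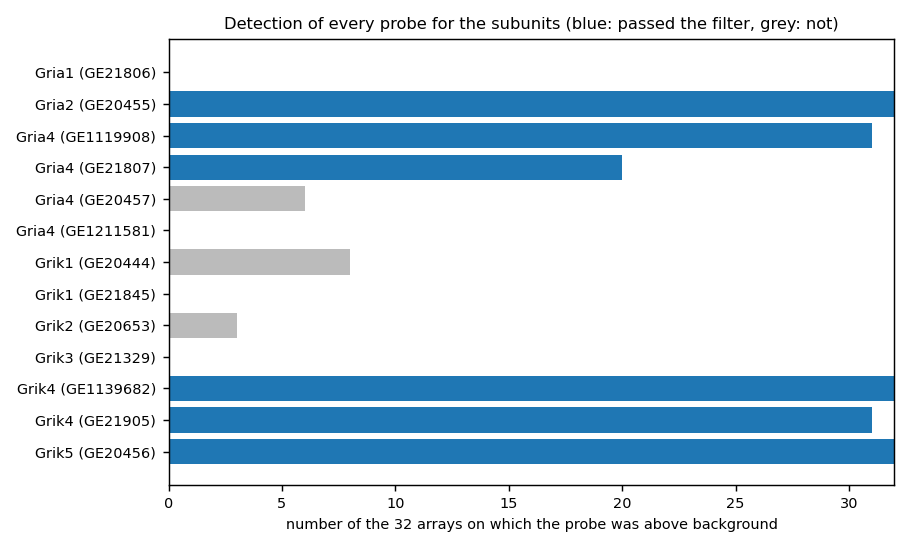
Number of the 32 arrays on which each of the 13 probes for the subunits was above background (horizontal axis), with 1 bar per probe. Blue bars are the 6 probes that passed the filter and grey bars the 7 that did not; Gria1, Grik1, Grik2 and Grik3 have grey bars only.

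The other 4 genes stayed at or near background. The Gria1 probe GE21806 was above background on 0 of 32 arrays, with levels from 0.1, the floor set here, to 0.884. Gria1 encodes the AMPA subunit best known for its insertion into synapses during potentiation. Grik3 (GE21329) was likewise above background on 0 of 32 arrays, with levels from 0.121 to 0.525. Grik1 was above background on 8 of 31 arrays with GE20444 and on 0 of 31 with GE21845. The 8 arrays were spread over SHAM, TBI and TBI+MT at 4 h and both drug groups at 24 h, and the level of GE20444 ranged from 0.174 to 1.43. Grik2 (GE20653), the principal kainate subunit of CA3 neurons, was above background on 3 of 32 arrays, and 15 of its 16 levels lay between 0.145 and 1.19. The remaining level, 3.57 in TBI+MT 24 h replicate 1, rested on a single array at 9.62, whose duplicate read 1.33. None of these 4 genes entered a comparison. A probe at background gives a bound for that probe and not for the transcript.

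Gria2 gave levels between 41.8 and 413 over the 16 samples. In SHAM rats at 4 h its level was 208 and 193, and in TBI rats at 4 h it was 212 and 413. Both 4 h TBI samples thus lay above both SHAM samples, replicate 1 of TBI by little. Of all probes, 36.4% had this order. In TBI+MT rats at 4 h the level was 133 and 191, below both TBI samples, as for 33.6% of all probes. In TBI+CB rats at 4 h the Gria2 level was 221 and 195, within the range of the TBI and SHAM samples together. At 24 h the level was 210 and 102 in SHAM, 106 and 116 in TBI, 41.8 and 213 in TBI+MT and 217 and 97.0 in TBI+CB. The 24 h groups overlapped, and the pools of SHAM, TBI+MT and TBI+CB each spanned the TBI level. Duplicate arrays of a Gria2 level differed by a median of 1.04-fold, whereas the 2 pools of TBI+MT at 24 h differed by 5.09-fold.

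Grik4 was the steadiest of the subunits at 4 h when read with GE1139682. Its 4 h levels were 251 and 202 in SHAM, 230 and 230 in TBI, 217 and 201 in TBI+MT and 237 and 201 in TBI+CB. All 8 samples at 4 h lay between 200.5 and 251. At 24 h SHAM remained in that range with 237 and 246, while TBI read 137 and 212, TBI+MT 117 and 176 and TBI+CB 197 and 73.8. All 6 samples from injured rats at 24 h were below both 24 h SHAM samples, a pattern noticed in the values, which 1 of 6 subunit probes and 2.17% of all probes showed. Of these 6 samples the 4 of drug-treated rats, with both of the dimmest, were in run 3, and the SHAM samples in run 2. The second probe for the same transcript, GE21905, behaved differently, with levels from 2.53 to 35.04. In TBI rats at 4 h, where the first probe gave nearly equal levels in both pools, the second gave 35.04 and 6.90. In TBI+CB rats at 24 h it gave 28.4 and 2.53, and in TBI+MT rats at 24 h 3.94 and 8.64. Over the 16 samples the 2 Grik4 probes correlated with Pearson's r = 0.811 (permutation p = 0.00036, adjusted p = 0.00126) and Spearman's rho = 0.429 (p = 0.1, adjusted p = 0.224). Without the 2 samples farthest from the median of the first probe, both of them the dim 24 h samples, r was 0.456. Within run 2 r was 0.409 (9 samples). With median scaling the relation thus depended largely on the dim samples, whereas after quantile normalization r over the 16 samples was 0.861.

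Grik5 had the narrowest range at 4 h after Grik4. Its 4 h levels were 17.9 and 19.8 in SHAM, 18.5 and 24.2 in TBI, 19.2 and 15.8 in TBI+MT and 19.4 and 17.98 in TBI+CB. At 24 h they were 16.4 and 25.4 in SHAM and 20.7 and 21.9 in TBI. In TBI+MT rats at 24 h the level was 12.4 and 9.30, and in TBI+CB rats 16.8 and 6.45. The 3 lowest Grik5 levels of the series were thus in drug-treated rats at 24 h. Both drug groups lay below both TBI samples, as did 28.6% of all probes in TBI+MT and 27.4% in TBI+CB. The higher TBI+CB sample lay above the lower SHAM sample. The TBI+MT sample with the lower level was the brighter of the pair, with 45.4% of probes above background. Both drug groups at 24 h were in run 3, so slide run and drug cannot be told apart in these levels. The table pairs the Grik5 probe with 2 transcripts, of which RefSeq lists 1 under Grik5, and the other is not listed in the table used here.

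Gria4, the AMPA subunit with fast kinetics that is prominent in interneurons, gave levels between 6.70 and 14.7 with GE1119908. At 4 h they were 7.63 and 13.7 in SHAM, 8.11 and 14.7 in TBI, 8.15 and 7.15 in TBI+MT and 10.6 and 7.42 in TBI+CB. At 24 h they were 8.85 and 11.5 in SHAM, 9.86 and 10.0 in TBI, 12.2 and 11.2 in TBI+MT and 7.91 and 6.70 in TBI+CB. The last of these rests on 1 array, since its duplicate was masked. The dimmer probe GE21807 read 2.56 and 2.24 in SHAM, 1.53 and 2.96 in TBI, 0.698 and 0.982 in TBI+MT and 2.82 and 1.08 in TBI+CB at 24 h. In TBI+MT rats at 24 h the Gria4 probes thus pointed in opposite directions, with GE1119908 above both TBI samples and GE21807 below them. Of all probes, 5.69% lay above and 28.6% below. GE21807 was above background on 1 of 4 arrays in TBI+MT and on 2 of 4 in TBI.

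**Figure D2:**
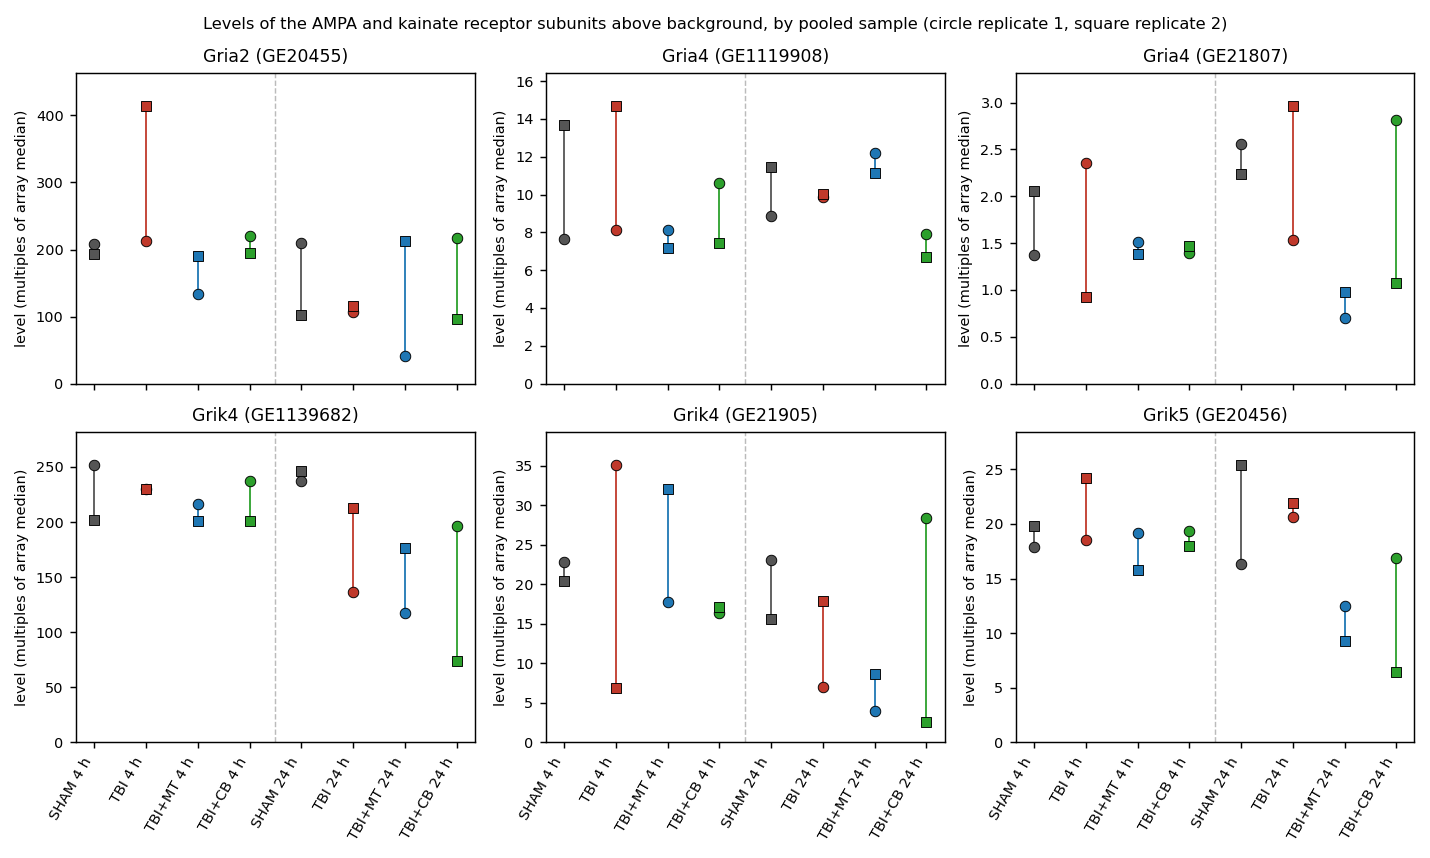
Level of the 6 probes that passed the filter (vertical axes, in multiples of the array median, each from 0) in the 8 groups, with 4 h on the left and 24 h on the right of the dashed line. Circles are replicate 1, squares replicate 2 and lines join the pools of a group. Grik4 (GE1139682) lies between 200.5 and 251 in all 4 h samples. Grik5 is below TBI in both drug groups at 24 h, as are 28.6% of all probes in TBI+MT and 27.4% in TBI+CB.

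Some of the spread between pools moved with the brightness of the arrays. The second Grik4 probe correlated with the percent of probes above background over the 16 samples (r = 0.847, permutation p = 3e-05, adjusted p = 0.00021, and rho = 0.859, p = 1e-04, adjusted p = 7e-04), as did Gria2 (r = 0.702, p = 0.00226, adjusted p = 0.00527, and rho = 0.541, p = 0.0324, adjusted p = 0.113). The first Grik4 probe gave r = 0.621 (permutation p = 0.0103, adjusted p = 0.018) but rho = 0.276 (p = 0.299, adjusted p = 0.349). Grik5 (r = 0.341, adjusted p = 0.23, rho = -0.068, adjusted p = 0.806), Gria4 GE1119908 (r = -0.314, adjusted p = 0.237, rho = -0.397, adjusted p = 0.224) and Gria4 GE21807 (r = 0.472, adjusted p = 0.0913, rho = 0.318, adjusted p = 0.323) did not pass the permutation test. The adjustment covers the 7 relations computed, the 2 Grik4 probes against each other included. Leaving out the 2 samples farthest from the median brightness gave r = 0.796 for the second Grik4 probe, 0.619 for Gria2 and 0.603 for the first Grik4 probe. Within the 9 samples of run 2 these were 0.566, 0.413 and 0.025. Across all kept probes the median r with brightness was 0.444, and 45.7% of probes had an r over 0.5, so such a relation was common on these arrays. After quantile normalization, Gria4 GE1119908 had r = -0.877 with brightness.

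**Figure D3:**
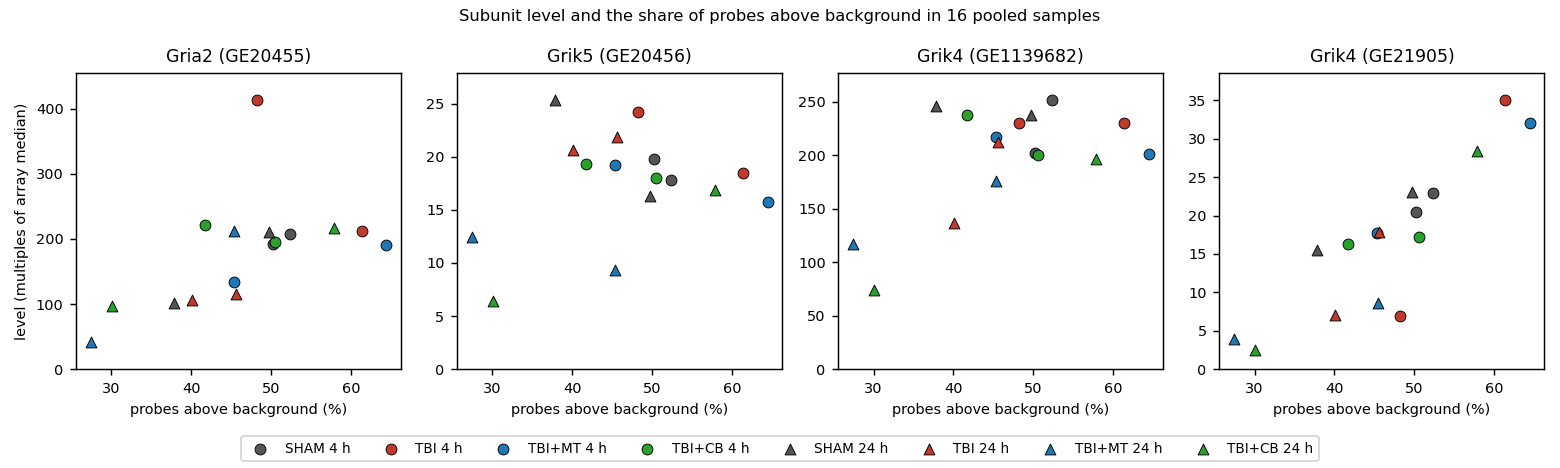
Level of 4 probes (vertical axes, in multiples of the array median, from 0) against the percent of probes above background in the 16 pooled samples (horizontal axes); circles are 4 h and triangles 24 h, and colours are the treatments. The second Grik4 probe (GE21905) rises with brightness over the whole range, whereas Grik5 is low in 3 drug-treated 24 h samples, 1 of which is not dim. All of these are in run 3, where slide run and drug cannot be told apart.

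Did injury or drug treatment change these levels? Differences were tested with limma across the 17635 kept probes, with Benjamini-Hochberg adjustment over those with a value in the groups compared (17593 to 17619) and a threshold of 0.05. The 12 comparisons were TBI against SHAM, each drug group against TBI and the drug groups against each other at either time, SHAM at 24 h against SHAM at 4 h, and the change of the injury and the drug differences between the times. No subunit passed in any of them: 0 of 4 genes and 0 of 6 probes. The same held for the whole array, where 0% of probes passed in each of the 12 comparisons, against between 325 and 1447 probes with an unadjusted p under 0.05. The only subunit probe with an unadjusted p under 0.05 was Gria4 GE21807 in TBI+MT against TBI at 24 h. This probe passed the filter only through SHAM at 4 h and 24 h. In the groups compared it was above background on 1 of 4 TBI+MT and 2 of 4 TBI arrays. Intervals below are 95% intervals of the log2 difference. With median scaling the median of all probes was itself displaced, by 0.33 on the log2 scale in TBI against SHAM at 4 h, by -0.40 in TBI+MT and -0.28 in TBI+CB against TBI at 4 h, and by -0.39 in TBI+MT against TBI at 24 h, and by 0.01 in TBI against SHAM and -0.04 in TBI+CB against TBI at 24 h. Subunit differences are given as measured and read against these medians.

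In TBI against SHAM at 4 h, the level of Gria2 differed by 1.48-fold (log2 0.56, SE 0.733, interval -1.04 to 2.16, limma adjusted p = 0.936). This was 0.24 above the median of all probes. The difference depended on TBI replicate 2, and within run 1, which leaves that sample out, it was 0.08 (1 sample against 2). Astrocyte markers were also highest in TBI replicate 2, with a summed level of 496 against 219 in TBI replicate 1 and 136 and 246 in SHAM, and their part in the Gria2 level was not tested. The first Grik4 probe differed by 0.03 (SE 0.522, limma adjusted p = 0.996), Grik5 by 0.17 (SE 0.516, adjusted p = 0.963) and Gria4 by 0.09 (SE 0.482, adjusted p = 0.979), all 3 below the median of all probes, and after quantile normalization all 3 were negative, at -0.26, -0.29 and -0.32. The second Grik4 probe differed by -0.48 (SE 1.03, limma adjusted p = 0.948), which was -0.80 from the median of all probes and -0.83 after quantile normalization, and the second Gria4 probe by -0.19 (SE 0.611, adjusted p = 0.966). With both TBI samples above both SHAM samples in 36.4% of all probes and below in 7.58%, 1 of 6 subunit probes (Gria2) was above and 0 below.

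In TBI against SHAM at 24 h, where all samples shared run 2, the first Grik4 probe was 1 of 6 with both TBI samples below both SHAM samples, as were 11.4% of all probes, while 0 of 6 were above, against 13.1% of all probes. Its difference was -0.50 (SE 0.522, interval -1.64 to 0.64, limma adjusted p = 1), and the second Grik4 probe differed by -0.76 (SE 1.03, adjusted p = 1) with overlapping groups. Both values rested on TBI replicate 1, without which they were -0.19 and -0.08, whereas without TBI replicate 2 they were -0.82 and -1.44. Gria2 differed by -0.40 (SE 0.733, limma adjusted p = 1), Grik5 by 0.06 (SE 0.516, adjusted p = 1), Gria4 by -0.02 with GE1119908 and by -0.17 with GE21807 (adjusted p = 1 for both). Beside these, microglial markers summed to 99.0 and 75.7 in TBI and to 24.8 and 51.1 in SHAM at 24 h, and the 2 pyramidal neuron markers that passed summed to 32.0 and 45.5 in TBI and 39.7 and 39.8 in SHAM. Their part in the Grik4 values was not tested.

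At 4 h both drugs were set against the same TBI samples, so their differences share those 2 pools. Gria2 differed by -0.89 in TBI+MT (0.538-fold, SE 0.733, interval -2.49 to 0.70, limma adjusted p = 0.736) and by -0.51 in TBI+CB (SE 0.733, interval -2.11 to 1.09, adjusted p = 0.957). These values depended on the TBI sample: without TBI replicate 1, as also within run 2, they were -1.38 and -0.99, and without TBI replicate 2 they were -0.41 and -0.03. Quantile normalization gave -0.31 and -0.32. Beside them, the summed marker levels of several cell types were lower in TBI+MT than in TBI without overlap: astrocytes with 90.3 and 174 against 219 and 496, oligodendrocytes with 48.8 and 64.2 against 99.8 and 109, endothelium with 19.8 and 19.9 against 35.2 and 41.6, microglia with 20.4 and 21.4 against 25.8 and 37.6, and interneurons with 78.5 and 80.3 against 93.2 and 129.5. In TBI+CB the sums of astrocytes (209 and 201), oligodendrocytes (89.5 and 65.9) and endothelium (26.4 and 23.98) were also below both TBI sums. So were the sums of the pyramidal neuron markers that passed, with 37.1 and 31.96 in TBI+CB against 75.4 and 39.5 in TBI. In TBI+MT the pyramidal sums, 30.3 and 63.3, overlapped those of TBI. A sum weighs the brightest genes of its list most. Of all probes, 33.6% in TBI+MT and 34.6% in TBI+CB were below both TBI samples. Median log2 differences of the markers in TBI+MT were -1.38 (astrocytes), -0.9 (oligodendrocytes), -0.83 (endothelium), -0.45 (microglia) and -1.36 (interneurons). After quantile normalization these were -0.81, -0.39, -0.31, 0.03 and -0.82. In TBI+CB the medians were -0.63 (astrocytes), -0.85 (oligodendrocytes), -0.53 (endothelium) and -0.57 (pyramidal neurons). Quantile normalization moved these to -0.24, -0.35, -0.085 and -0.15. The part of these markers in the Gria2 values was not tested. The first Grik4 probe differed by -0.14 and -0.08 (limma adjusted p = 0.949 and 0.981), and Grik5 by -0.28 and -0.18 (adjusted p = 0.872 and 0.961), in TBI+MT and TBI+CB. All of these 4 values were nearer 0 than the median of all probes. Quantile normalization turned the sign of the first Grik4 probe, to 0.47 and 0.16, and of Grik5, to 0.33 and 0.27. Gria4 GE1119908 differed by -0.52 and -0.30 (limma adjusted p = 0.742 and 0.957) and turned to 0.04 and 0.14 after it, Gria4 GE21807 differed by -0.03 and -0.05, and Grik4 GE21905 by 0.62 and 0.11 (adjusted p = 0.858 and 0.984). Both TBI+MT samples lay below both TBI samples for 2 of 6 probes (Gria2 and Grik4 GE1139682) and above for 0 of 6, against 33.6% and 8.14% of all probes. For TBI+CB the counts were 0 of 6 in each direction, against 34.6% below and 7.41% above among all probes.

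At 24 h, among the brightest probe of each gene, Grik5 had the most negative difference under each drug. It differed from TBI by -0.98 in TBI+MT (0.506-fold, SE 0.516, interval -2.11 to 0.14, limma adjusted p = 0.916) and by -1.03 in TBI+CB (0.49-fold, SE 0.516, interval -2.15 to 0.10, limma adjusted p = 0.592). Quantile normalization gave -0.73 and -1.14. Without the dim TBI+CB replicate 2 the TBI+CB difference was -0.34, and without replicate 1 it was -1.72. Without TBI+MT replicate 1 the TBI+MT difference was -1.19, and without replicate 2 it was -0.77. The Grik5 difference at 24 h minus that at 4 h was -0.70 in TBI+MT (SE 0.729, limma adjusted p = 0.98) and -0.85 in TBI+CB (SE 0.729, adjusted p = 0.605), so a change between the times was not shown. TBI+MT and TBI+CB, given at different doses, themselves differed in Grik5 by 0.045 (SE 0.516, interval -1.08 to 1.17, limma adjusted p = 0.981). The 2 pyramidal neuron markers that passed summed to 32.0 and 45.5 in TBI, 25.3 and 43.8 in TBI+MT and 43.7 and 10.2 in TBI+CB at 24 h, and the lowest of these sums and the lowest Grik5 level belong to the same sample. Microglial markers summed to 82.7 and 54.8 in TBI+MT and to 99.6 and 82.4 in TBI+CB, beside 99.0 and 75.7 in TBI. Endothelial sums, like Grik5, were below both TBI samples in both drug groups. They were 45.0 and 51.4 in TBI, 30.3 and 27.4 in TBI+MT and 40.2 and 26.2 in TBI+CB. Of all probes, 28.6% in TBI+MT and 27.4% in TBI+CB lay below both TBI samples. Dentate granule cell markers summed to 30.3 and 21.9 in TBI, 41.5 and 6.56 in TBI+MT and 7.67 and 7.64 in TBI+CB. Whether these markers bear on Grik5 was not tested, and slide run and drug cannot be told apart.

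Of the other probes at 24 h, Gria4 GE21807 differed by -1.36 in TBI+MT (0.389-fold, SE 0.611, interval -2.69 to -0.03, limma adjusted p = 0.897) and by -0.29 in TBI+CB (SE 0.611, adjusted p = 0.872). Leaving out TBI replicate 2 gave -0.89 in TBI+MT. The TBI+MT value of GE21807 rests largely on readings at background, since 1 of 4 TBI+MT and 2 of 4 TBI arrays were above it. Gria4 GE1119908 differed by 0.23 in TBI+MT (SE 0.482, limma adjusted p = 0.958) and by -0.45 in TBI+CB (SE 0.482, adjusted p = 0.753). Gria2 differed by -0.23 in TBI+MT (SE 0.733, interval -1.83 to 1.36, limma adjusted p = 0.975), which became 0.94 without the dim replicate 1, and by 0.39 in TBI+CB (interval -1.21 to 1.99, adjusted p = 0.854). The first Grik4 probe differed by -0.25 in TBI+MT (limma adjusted p = 0.958) and by -0.50 in TBI+CB (adjusted p = 0.749), the latter becoming 0.21 without the dim replicate 2. The second Grik4 probe differed by -0.94 and -0.40 (SE 1.03, limma adjusted p = 0.939 and 0.895), and without that dim sample the TBI+CB value was 1.34. Both TBI+MT samples were below both TBI samples for 2 of 6 probes (Gria4 GE21807 and Grik5) and above for 1 (Gria4 GE1119908), against 28.6% and 5.69% of all probes. Both TBI+CB samples were below for 2 of 6 (Gria4 GE1119908 and Grik5) and above for 0, against 27.4% and 15.9%.

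**Figure D4:**
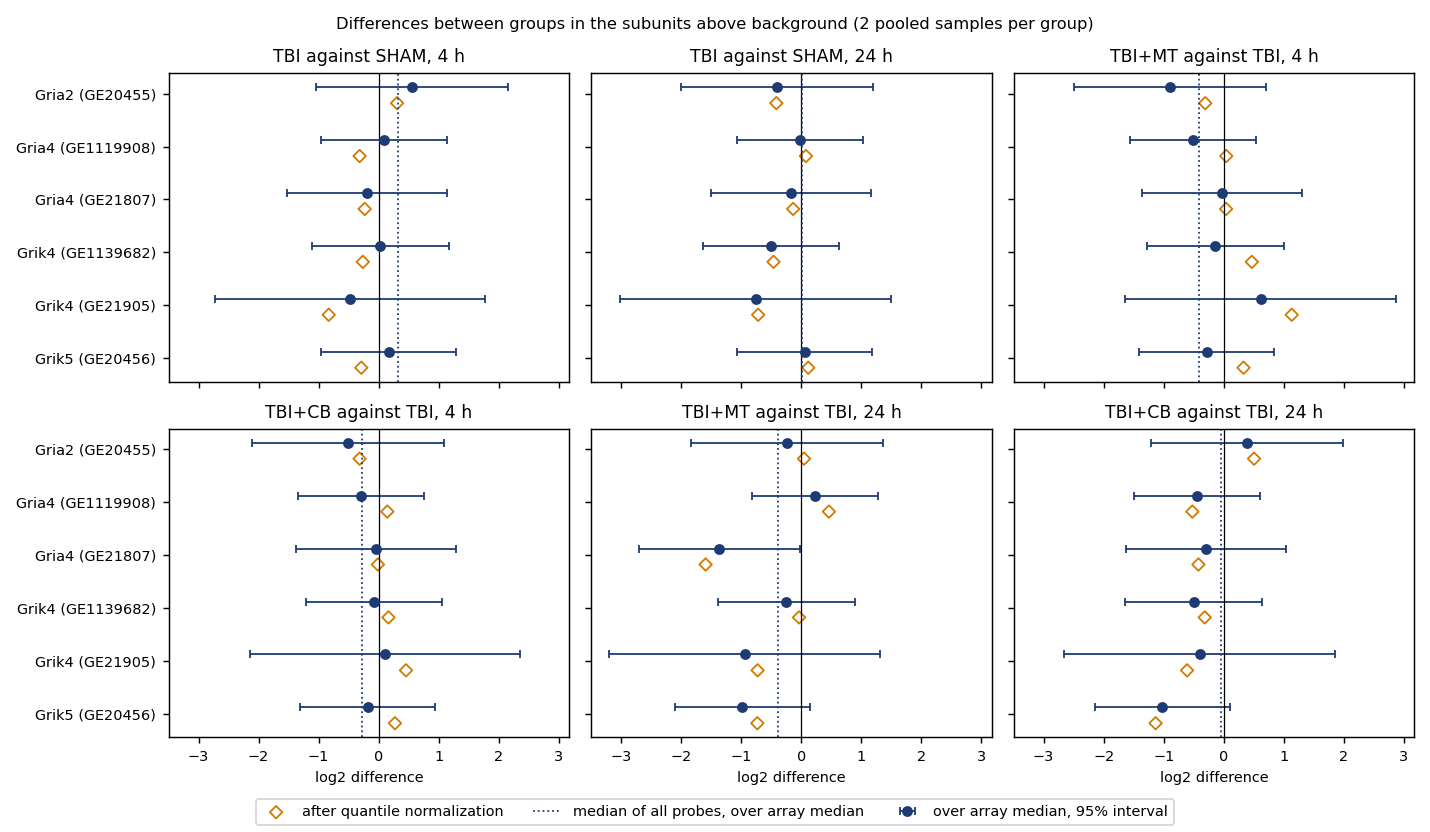
Log2 difference of the 6 subunit probes (rows) in 6 comparisons (panels). Filled circles with bars are the values over the array median with 95% intervals, open diamonds the values after quantile normalization and dotted lines the median of all probes. Every interval includes 0 except that of Gria4 (GE21807) in TBI+MT against TBI at 24 h, from -2.69 to -0.03 before adjustment. That probe was above background there on only 1 of 4 TBI+MT and 2 of 4 TBI arrays.

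The genes whose pattern over the 16 samples was most like that of each subunit were ranked by Pearson's r after quantile normalization among 8189 other genes. For Gria2 these were Zranb2 (r = 0.970) and Map4k3 (r = 0.968). For Gria4 GE1119908 they were Asic1 (r = 0.953) and P2rx2 (r = 0.952), both of which encode cation channels. For the first Grik4 probe they were Ankrd33b (r = 0.871) and Nr3c1 (r = 0.852), the latter encoding the glucocorticoid receptor. For Grik5 they were Camk1g (r = 0.956), a calmodulin-dependent kinase, and Htr6 (r = 0.947), a serotonin receptor. These values describe the same 16 samples, which share the differences in brightness given above, and carry no test. Among the subunits themselves, r after quantile normalization ran from -0.814 for Gria2 with Gria4 GE1119908 to 0.861 for the 2 Grik4 probes. With median scaling, the scale of the levels above, the same pairs gave 0.02 and 0.811. The inverse relation of Gria2 and Gria4 was thus seen only after quantile normalization, where their r with brightness was 0.69 and -0.877.

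AMPA and kainate receptors work with partner proteins, which were described from 6 lists. None of their genes passed the test in any comparison, beside 0% of all probes. Of 20 genes for AMPA receptor auxiliary subunits, 10 passed the filter. Their median log2 difference was 0.19 in TBI against SHAM at 4 h, -0.50 in TBI+MT and -0.34 in TBI+CB against TBI at 4 h, and -0.03 and -0.01 in the same comparisons at 24 h, near or below the median of all probes except in TBI+MT at 24 h. After quantile normalization the sign turned in TBI against SHAM at 4 h (-0.13) and in TBI+MT against TBI at 4 h (0.03) and 24 h (0.04). Prrt1, an AMPA receptor-associated membrane protein, read 4.97 and 5.38 in SHAM and 10.3 and 13.3 in TBI at 4 h (log2 1.18, SE 0.621, limma adjusted p = 0.936). Its TBI samples were both above both SHAM samples, as were those of 36.4% of all probes, and quantile normalization gave 0.72. Syndig1, which promotes excitatory synapse formation, read 49.3 and 101 in TBI and 22.5 and 22.6 in TBI+CB at 4 h (log2 -1.65, SE 0.838, limma adjusted p = 0.957). Its TBI+CB samples were below both TBI samples, as in 34.6% of all probes, and quantile normalization gave -1.20. Cacng8, an auxiliary subunit best known in hippocampus, was not above background in TBI at 24 h (0.1 and 0.125) and read 6.18 and 0.293 in TBI+MT, at least 1.16-fold higher against the background bound, with a measured mean of 3.23 against 0.113 (limma adjusted p = 0.848), and the higher TBI+MT level was that of the dim replicate 1.

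Of 7 kainate receptor partners, 6 passed, and their median was -1.18 in TBI+MT and -0.75 in TBI+CB against TBI at 4 h, below the medians of all probes. These medians include 2 genes with low readings, C1ql3 and C1ql2, the latter above background on 16 of 32 arrays. In TBI+MT at 4 h C1ql3 read 0.481 and 0.1, the floor, and C1ql2 0.746 and 0.479. The medians therefore rest in part on values near the floor. After quantile normalization the medians were -0.61 and -0.43. Actn4, an actin crosslinking protein, read 49.9 and 89.4 in TBI and 40.6 and 16.2 in TBI+CB at 24 h (log2 -1.38, SE 0.552, limma adjusted p = 0.592). The 16.2 came from the dim TBI+CB replicate 2. Both TBI+CB samples were below both TBI samples, as in 27.4% of all probes, and quantile normalization gave -1.42. C1ql2 and C1ql3 encode secreted proteins that gather kainate receptors at mossy fiber synapses. C1ql3 read 1.81 and 3.01 in SHAM and 0.785 and 0.579 in TBI at 4 h (log2 -1.79, SE 0.971, limma adjusted p = 0.936). Outside SHAM at 4 h no sample exceeded 0.877, and SHAM at 24 h read 0.269 and 0.227, below TBI at 4 h. The C1ql3 difference thus rests on the only group where its probe was high. C1ql2 read 0.853 and 4.41 in TBI and 0.746 and 0.479 in TBI+MT at 4 h (log2 -1.70, SE 0.969, limma adjusted p = 0.736), so that the difference was set by TBI replicate 2. C1ql2 also marks dentate granule cells.

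Of 22 scaffold and trafficking genes, 13 passed, with a median of 0.65 in TBI against SHAM at 4 h, and 12 of 13 were lower in TBI+MT than in TBI at 4 h with a median of -0.92, where 70.4% of all probes were lower. After quantile normalization these medians became 0.30 and -0.41, and 9 of 13 were lower, against 50.4% of all probes. The exception with median scaling was Tamalin, a scaffold protein of glutamate receptors, which read 9.96 and 5.63 in TBI and 27.5 and 17.1 in TBI+MT at 4 h (log2 1.53, SE 0.598, limma adjusted p = 0.736). Its TBI+MT samples were above both TBI samples, as in 8.14% of all probes, and quantile normalization gave 2.00. Myo5a, a motor that carries receptors into spines, read 10.1 and 13.4 in TBI and 2.67 and 7.04 in TBI+MT at 4 h (log2 -1.43, SE 0.834, limma adjusted p = 0.736). Nptxr, a pentraxin receptor that clusters AMPA receptors, read 32.3 and 35.7 in TBI and 13.8 and 16.0 in TBI+CB at 24 h (log2 -1.19, SE 0.581, limma adjusted p = 0.592). Its TBI+CB samples were both below both TBI samples, as were those of 27.4% of all probes.

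Of 13 genes for glutamate synthesis, release and uptake, 8 passed, and all 8 were lower in TBI+MT than in TBI at 4 h with a median of -0.70, where 70.4% of all probes were lower. After quantile normalization 5 of 8 were lower, with a median of -0.24, against 50.4% of all probes. In TBI+CB against TBI at 24 h 3 of 8 were lower, with a median of 0.25, against 51.3% and -0.04 for all probes. Slc17a7, the vesicular glutamate transporter of hippocampal pyramidal neurons and 1 of the markers above, read 25.5 and 31.0 in TBI and 19.0 and 5.60 in TBI+CB at 24 h (log2 -1.45, SE 0.549, limma adjusted p = 0.592). The 5.60 came from the dim TBI+CB replicate 2. Both TBI+CB samples were below both TBI samples, as in 27.4% of all probes, and quantile normalization gave -1.57. Slc17a6, the related transporter of mainly subcortical neurons, read 3.22 and 2.38 in TBI and 8.31 and 11.1 in TBI+CB at 24 h (log2 1.80, SE 0.857, limma adjusted p = 0.592). Its TBI+CB samples were above both TBI samples, as in 15.9% of all probes, and quantile normalization gave 1.89. Slc1a3, the astrocyte glutamate transporter, read 147 and 349 in TBI and 62.9 and 120 in TBI+MT at 4 h (log2 -1.38, SE 0.718, limma adjusted p = 0.736). Its TBI+MT samples were below both TBI samples, as in 33.6% of all probes, and quantile normalization gave -0.81. Of the 3 RNA editing enzymes, Adarb1 passed, which edits the Gria2 transcript. It read 2.70 and 4.04 in TBI and 2.61 and 0.472 in TBI+CB at 24 h (log2 -1.57, SE 0.916, limma adjusted p = 0.608), and its low value came from the same dim sample as the lowest Grik5 level. None of the 3 delta receptor genes passed the filter.

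**Figure D5:**
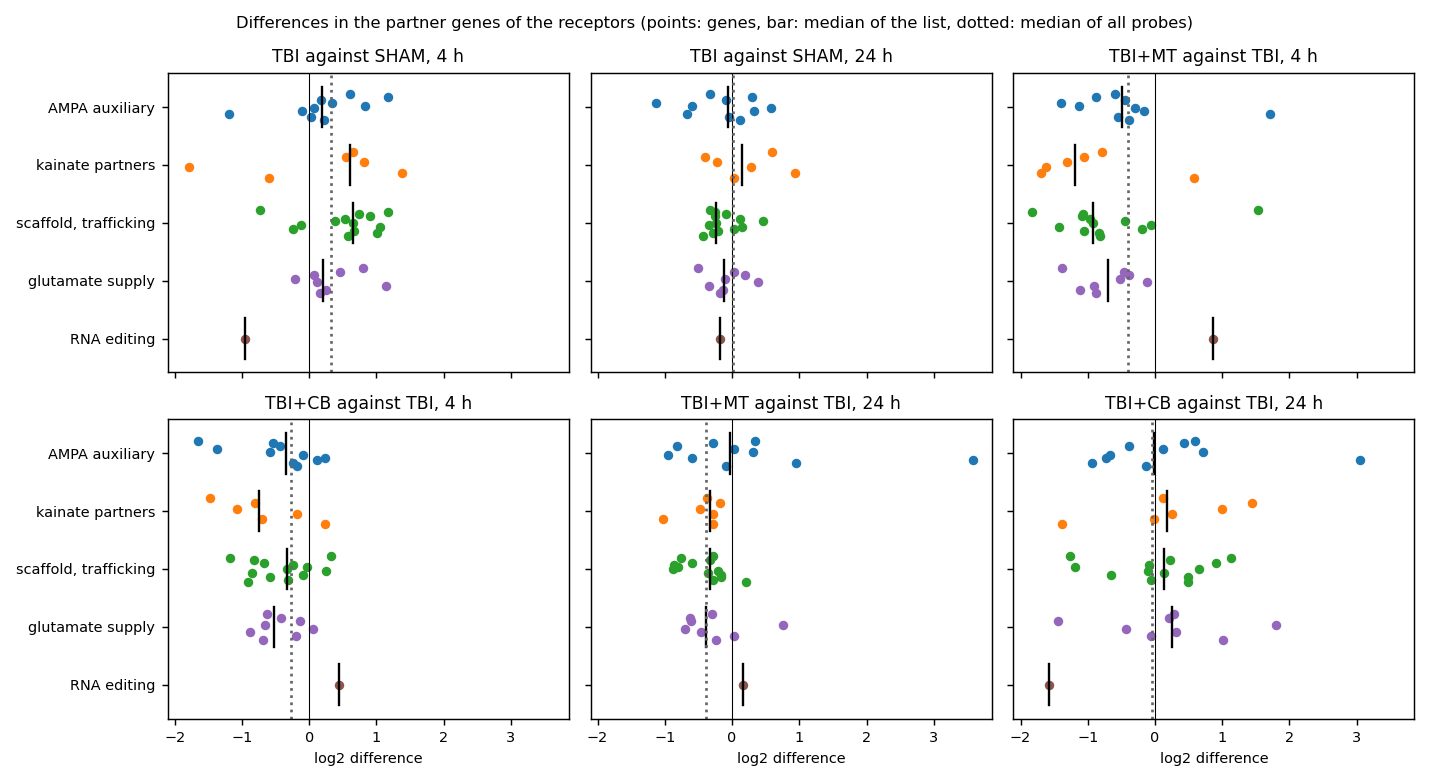
Log2 difference of the partner genes that passed the filter (points) by list (rows) in 6 comparisons (panels). Black bars are list medians and dotted lines the median of all probes; in TBI+MT against TBI at 4 h 12 of 13 scaffold and trafficking genes are below 0, where the median of all probes is -0.40 and 70.4% of them are lower.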

How the data were processed

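RNA of laser-captured CA3 neurons was amplified in 2 rounds and hybridized to 32 CodeLink rat arrays. The deposited scanner files give an intensity per spot from CodeLink Expression Analysis, in which values below 0 occur, and per the file headers the median of each array. The authors' own table holds the same values as a ratio to the array median, with a factor per array close to 1. For the values used here, each intensity was expressed in multiples of its array's median, values under a floor of 0.1 were raised to it, and log2 was taken. Masked and irregular spots were left out, and 17635 of 33849 probes were kept. Symbols come from the platform table, with 16878 probes paired to 1 symbol and 182 to several. limma 3.58.1 in R 4.3.3 fitted the 8 groups together without covariates (8 residual and 3.88 prior degrees of freedom). In simulated data for TBI against SHAM at 4 h the fit called 11% of probes changed by log2 2 and 66% of those changed by log2 4. The simulation used independent normal noise for each probe and 100 changed probes of each size. It held no differences of brightness or slide run, so these shares need not hold for the real arrays. Where a gene had several kept probes, the one with the highest mean stood for it in the lists. Named genes were every subunit probe, the 2 most similar genes of each and per list the 3 genes with the lowest p among the comparisons of TBI with SHAM and of each drug with TBI at either time, so genes with a smaller p in other comparisons are not named. The members and lists were chosen with earlier results of these data known. Correlations used 100000 permutations, two-sided. Alternatives covered scaling, floor, filter, arrays, fit, blocks and left-out samples. No probe sequence or genome build was used. Figures were drawn with matplotlib 3.10.9.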

Additional observations from a re-analysis of the deposited data

How the results depend on the processing

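The count of subunit genes called was 0 in all 388 counts under the alternatives. Of 1117 alternative log2 differences of subunits 59 had the opposite direction, and none passed the threshold (smallest adjusted p 0.219, for Grik5 in TBI+CB against TBI at 24 h without TBI+CB replicate 1, log2 -1.72; limma). Of 389 alternative values of the partner genes named, none had the opposite direction and none passed. These genes were picked for the lowest p in the same data and followed only in the comparison that gave it. That choice favours a stable direction, so the count cannot be set against that of the subunits. Across the array the largest count of probes called was 49, in TBI+MT against TBI at 4 h without TBI 4 h replicate 1 or with slide run as a block, then 47 in TBI against SHAM at 4 h without the same sample. Groups share replicate numbers. Deviations of same-numbered samples correlated between -0.347 and 0.287 over 9 pairs of groups. With 2 pools per group these values cannot settle whether the numbers pair samples. With the replicate block 0 probes were called in the 12 comparisons and the smallest adjusted p of a subunit was 0.676 (limma). As each group holds both numbers, the block cannot move a difference (change 0.0), which says nothing of pairing.

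Directions turned as follows; the cause was not tested. Quantile normalization gave 0.047 for Gria2 in TBI+MT at 24 h, -0.32 and 0.079 for Gria4 GE1119908 in TBI against SHAM at 4 h and 24 h, 0.042 and 0.14 in TBI+MT and TBI+CB at 4 h, 0.039 for Gria4 GE21807 in TBI+MT at 4 h, -0.26, 0.47 and 0.16 for Grik4 GE1139682 and -0.29, 0.33 and 0.27 for Grik5 in TBI against SHAM, TBI+MT and TBI+CB at 4 h. Array a alone gave -0.02 for Gria4 GE1119908 and -0.044 for Grik4 GE1139682 in TBI against SHAM at 4 h, and 0.087 and 0.023 for Gria4 GE21807 in TBI+MT and TBI+CB at 4 h. Array b alone gave 0.056 for Gria4 GE1119908 in TBI against SHAM at 24 h. Slide run as a block gave -0.33, 0.49, 0.695 and -0.023 for Gria4 GE1119908, Gria4 GE21807, Grik4 GE21905 and Grik5 in TBI against SHAM at 4 h, and 0.65 and 0.63 for Gria4 GE21807 in TBI+MT and TBI+CB at 4 h. Without both dim 24 h samples, chosen after seeing the data, Gria2 in TBI+MT was 0.94, Gria4 GE21807 in TBI+CB 0.41, Grik4 GE1139682 in TBI+MT 0.048 and in TBI+CB 0.21, Grik4 GE21905 in TBI+CB 1.34 and Grik5 in TBI+MT against TBI+CB -0.86.

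Leaving out 1 pooled sample moved the following across 0, and moved others by over 1.5 times without turning them, such as Grik4 GE1139682 in TBI against SHAM at 24 h (-0.82 to -0.19) and Gria2 in TBI+CB against TBI at 4 h (-0.99 to -0.03). In TBI against SHAM at 4 h the ranges were -0.33 to 0.52 for Gria4 GE1119908, -0.87 to 0.49 for Gria4 GE21807, -0.13 to 0.19 for Grik4 GE1139682, -1.65 to 0.69 for Grik4 GE21905 and -0.023 to 0.36 for Grik5. At 24 h they were -0.92 to 0.12 for Gria2, -0.20 to 0.17 for Gria4 GE1119908, -0.65 to 0.31 for Gria4 GE21807 and -0.25 to 0.38 for Grik5. In TBI+MT against TBI at 4 h they were -0.70 to 0.65 for Gria4 GE21807 and -0.55 to 1.79 for Grik4 GE21905, and at 24 h -1.41 to 0.94 for Gria2 and -0.56 to 0.07 for Grik4 GE1139682. In TBI+CB against TBI at 4 h they were -0.72 to 0.13 for Gria4 GE1119908, -0.72 to 0.63 for Gria4 GE21807, -0.20 to 0.046 for Grik4 GE1139682, -1.06 to 1.28 for Grik4 GE21905 and -0.38 to 0.011 for Grik5, and at 24 h -0.19 to 0.97 for Gria2, -0.98 to 0.41 for Gria4 GE21807, -1.21 to 0.21 for Grik4 GE1139682 and -2.14 to 1.34 for Grik4 GE21905. For Grik5 in TBI+MT against TBI+CB at 24 h the range was -0.65 to 0.74. A group left with 1 sample was assumed to vary like the others. Gria2, Gria4, Grik4 and Grik5 were limited by 2 pools per group, and Gria1, Grik1, Grik2 and Grik3 by signal near background.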
